A study of Mus musculus with 36 samples.

Results

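The genes described here were 32 genes of the endoplasmic reticulum (ER) folding machinery and the unfolded protein response, measured in hair follicle stem cell progenies of mouse tail skin around a first and a second wound. They were chosen by name from a list of ER chaperones, disulfide isomerases, stress sensors, stress effectors, degradation factors and translocation subunits, and the only measured values that selected them were their rows in the count tables. All 32 were listed in both tables, of 20181 genes in the Lrig1 GL table, 22587 genes in the Lgr5 GL table and 18865 genes in both, and all 32 passed the filter on low counts in both. Whether a gene was listed is therefore not a result, and the changes over time below were not part of the selection, although the list was drawn up with earlier results of these data known.

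Cells were genetically labelled (GL) in Lrig1-EGFP-ires-CreERT2 or Lgr5-EGFP-ires-CreERT2 mice carrying Rosa26-fl/STOP/fl-tdTomato, by 1 topical dose of hydroxytamoxifen on the tail at 6 to 8 weeks of age. The Lrig1 promoter drives Cre in the upper hair follicle (HF) and the Lgr5 promoter in the lower HF, and the sorted tdTomato+ cells were these cells and their descendants. Tail skin received a 2 mm punch wound after labelling (0w, sampled before injury), and a second, overlapping wound at 8w. Libraries of 150 sorted cells were made before injury, at 4 times from 1w pw1 to 8w pw1 (pw1, post wound 1) and at 1w pw2 (post wound 2), with 3 libraries at each of 6 time points in each population, from mice of both sexes. The sorted zone held the wound bed and distal HFs together, all mice including those at 0w were labelled, and no unwounded mice of the later ages were analysed here. The Lrig1 GL and Lgr5 GL cells came from different mouse lines and were counted in separate tables, so population, line and library batch cannot be told apart. The p-values of the comparisons rest on the spread between libraries of the same time point, estimated over all time points of a population together. Where the populations were compared, it was estimated over both.

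Proteins that are secreted or sit in membranes enter the ER through the Sec61 channel, where chaperones such as Hspa5 (BiP) and Hsp90b1 (GRP94) hold them while disulfide isomerases form their bonds. When unfolded protein builds up, the sensors Ern1 (IRE1), Eif2ak3 (PERK) and Atf6 start the unfolded protein response, in which Xbp1, Atf6 and Atf4 switch on chaperone, degradation and stress genes. In skin, this machinery serves keratinocytes that make junction proteins, basement membrane and secreted lipids. Gene counts show how much RNA of a gene was present, and show neither the splicing of Xbp1 nor the phosphorylation of Eif2ak3 and Ern1.

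The promoters of these genes are shown because some of them share a sequence element. The ER stress response element (ERSE), searched as CCAAT and CCACG with any 9 bases between them, is bound by NF-Y at CCAAT and by Atf6 at CCACG. RefSeq promoter windows of the GRCm38.p6 build, from 250 bases before to 50 bases after the annotated start, were matched by symbol for 28 of the 32 genes. Windows for Atf6, Hyou1, Manf and Sec61a1 were not analysed here. With both strands searched, an exact ERSE occurred in 8 of the 28 genes (28.6%), against 37 of 27025 genes with a window (0.137%). Since the genes were chosen by name for this response, this share and those of the elements below describe the list and were not tested. In the sites below, written 5′ to 3′ on the strand that spells the element, capitals mark the CCAAT and CCACG ends.
Hspa5 (chr2:34772025-34772043, plus strand of the gene): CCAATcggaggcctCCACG
Hsp90b1, far site (chr10:86705638-86705656, gene on the minus strand): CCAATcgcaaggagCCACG
Hsp90b1, near site (chr10:86705533-86705551, opposite strand to the gene): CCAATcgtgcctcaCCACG
Calr (chr8:84847075-84847093, opposite strand to the gene): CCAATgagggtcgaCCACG
Canx (chr11:50325800-50325818, gene on the minus strand): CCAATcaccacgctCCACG
Creld2 (chr15:88819520-88819538, opposite strand to the gene): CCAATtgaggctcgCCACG
Dnajc3 (chr14:118937827-118937845, plus strand of the gene): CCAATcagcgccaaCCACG
Pdia6 (chr12:17266491-17266509, plus strand of the gene): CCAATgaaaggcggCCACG
Syvn1 (chr19:6046532-6046550, plus strand of the gene): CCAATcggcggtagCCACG

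The shorter form ERSE-II, searched as ATTGG and CCACG with any 1 base between them, occurred in the windows of Dnajb11 and Herpud1, or 7.14% of the 28 genes against 0.0444% of all genes. The capitals below mark its fixed letters.
Herpud1 (chr8:94386377-94386387, plus strand): ATTGGgCCACG
Dnajb11 (chr16:22857852-22857862, plus strand, past the annotated start): ATTGGcCCACG

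The Xbp1 element searched as TGACGTGG was found in Txndc5 alone (3.57% against 0.714%), and the Atf4 element searched as TGATGNAA in Herpud1, Trib3 and Txndc5 (10.7% against 4.51%). No match of one motif overlapped a match of another in these genes. The 250 bases before the start are given for Hspa5, the best known target, for Hsp90b1, which held an ERSE at both 212 and 107 bases upstream, and for Syvn1, which carried the nearest ERSE to its start (44 bases upstream) and is one of the genes with a called change below. Capitals mark the ERSE ends, and CGTGG with ATTGG is the element read from the other strand.
Hspa5 (chr2:34771840-34772089, plus strand): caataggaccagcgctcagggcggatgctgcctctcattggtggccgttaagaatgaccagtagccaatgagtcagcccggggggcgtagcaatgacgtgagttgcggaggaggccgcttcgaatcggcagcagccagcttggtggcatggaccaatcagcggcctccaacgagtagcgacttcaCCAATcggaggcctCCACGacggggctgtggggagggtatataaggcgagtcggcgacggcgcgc
Hsp90b1 (chr10:86705445-86705694, minus strand): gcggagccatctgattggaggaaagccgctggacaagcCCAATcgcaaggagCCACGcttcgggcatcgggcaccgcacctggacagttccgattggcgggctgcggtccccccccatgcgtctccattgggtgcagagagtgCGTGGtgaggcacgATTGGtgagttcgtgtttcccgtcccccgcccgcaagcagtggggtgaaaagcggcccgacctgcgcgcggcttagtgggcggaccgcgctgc
Syvn1 (chr19:6046326-6046575, plus strand): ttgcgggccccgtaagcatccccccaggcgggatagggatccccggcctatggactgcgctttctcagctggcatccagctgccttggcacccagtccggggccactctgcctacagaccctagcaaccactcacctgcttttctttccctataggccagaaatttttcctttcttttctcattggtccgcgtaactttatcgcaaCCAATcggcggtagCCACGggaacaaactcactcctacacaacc

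**Figure D1:**
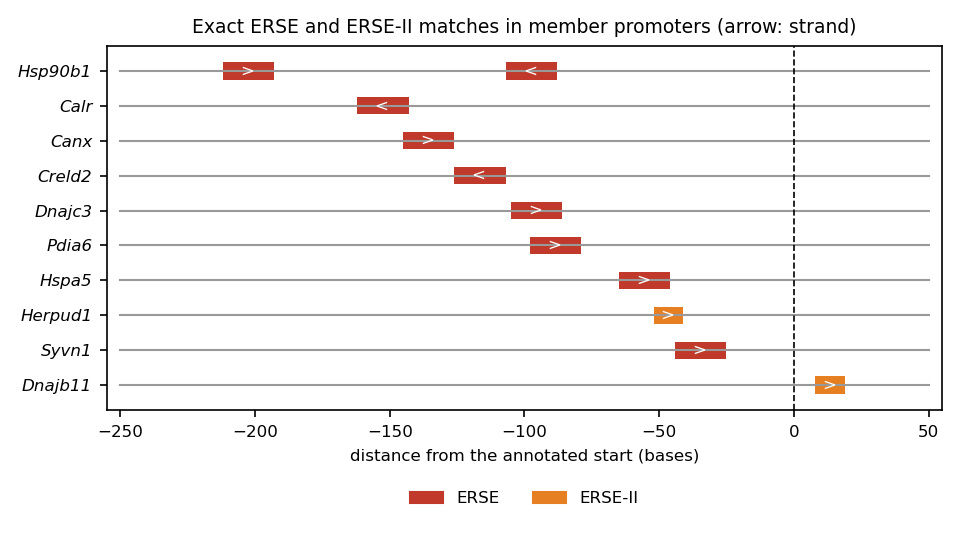
Position of each exact ERSE (red) and ERSE-II (orange) in the promoter windows of the 10 genes that held one, with the distance from the annotated start in bases on the horizontal axis and the arrow giving the strand relative to the gene. The ERSE copies lay between 212 bases (Hsp90b1) and 44 bases (Syvn1) upstream of the start.

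At 1w pw2 in Lrig1 GL cells, 5 of the 8 genes with an ERSE had a positive log2 fold change against 0w, from -2.08 for Syvn1 to 1.61 for Canx, and so had 10 of the 20 matched genes without one. At 1w pw1 in Lgr5 GL cells 7 of the 8 were positive, and so were 13 of the 20 without an ERSE, with medians on the log2 scale of 0.15 and 0.30. These are descriptions of the letters in a window and were not tested as a relation.

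The libraries held 765252 to 3365666 counts in Lrig1 GL and 1297798 to 6960537 counts in Lgr5 GL cells, and 3 counts, taken as the detection floor, were worth 0.891 to 3.92 CPM and 0.431 to 2.31 CPM. All 8 keratinocyte markers listed were present in both tables, summing to 12900 to 31039 CPM and 13241 to 38363 CPM per library. Immune markers summed to at most 28.6 CPM and 33.3 CPM, with Lyz2, Tyrobp, Cd3e and Cd207 absent from both tables, and of 4 plasma cell markers only Sdc1, which keratinocytes also express, was listed. Fibroblast markers reached 89.6 CPM in Lrig1 GL and 378 CPM in Lgr5 GL libraries, and their part in the results was not tested. Of 6 sebocyte markers, 5 were in the tables (not Awat1), summing to 537 to 2630 CPM (mean 1337) in the Lrig1 GL libraries at 0w. Those at 1w pw1 to 4w pw1 held 409 to 696 CPM, those at 8w pw1 and 1w pw2 706 to 863 CPM, and Lgr5 GL libraries 111 to 441 CPM. Sebocytes secrete lipid, the 0w libraries are the reference of each comparison with 0w, and the part of these cells was not tested. The predicted gene Gm12415 took 12.04 to 52.1% of the Lgr5 GL counts, so levels were scaled by TMM before they were compared. The Lrig1 GL libraries at 8w pw1 and 1w pw2 stood apart in base composition: the mean transcript GC content weighted by counts was 46.8 to 47.2% at 8w pw1 and 46.9 to 48.1% at 1w pw2, against 49.6 to 49.8% at 0w. Library c of 2w pw1, at 47.7%, lay within the 1w pw2 range, apart from the other 2w pw1 libraries (49.6 and 49.8%), and it is among those whose removal brought a call of Canx below. Mitochondrial counts made up 10.9 to 14.4% of the 8w pw1 libraries and 3.15 to 5.38% of the 0w libraries. The summed keratinocyte markers of Lrig1 GL cells were 12900 to 18476 CPM at 8w pw1 and 18189 to 19700 CPM at 1w pw2 against 21866 to 25602 CPM at 0w. The part of marker level, GC content and mitochondrial share in the results at these time points was not tested, except for the removal of the GC trend given below. GC content in Lgr5 GL cells stayed between 48.8 and 50.6% over all libraries.

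Before injury, the module was led by P4hb, the beta subunit of collagen prolyl hydroxylase that also works as a disulfide isomerase. Per length, its level was 1447 ± 380 TPM (SD, n = 3) in Lrig1 GL and 229 ± 62.0 TPM in Lgr5 GL cells at 0w. In each population its lowest library lay above every library of the other 31 genes. Next in Lrig1 GL cells came Calr (257 TPM), Sec61b (252 TPM), Pdia3 (225 TPM), Canx (213 TPM), Pdia6 (199 TPM) and Hsp90b1 (182 TPM), with ranges that overlapped. Next in Lgr5 GL cells were Pdia3 (96.4 TPM), Calr (63.9 TPM), Pdia6 (59.2 TPM) and Canx (56.4 TPM), also with overlapping ranges. Among the sensors, Ern1 stood at 2.59 TPM and Eif2ak3 at 2.36 TPM in Lrig1 GL cells and at 0.758 TPM and 2.71 TPM in Lgr5 GL cells, among the 4 lowest genes of each population. TPM of the 2 populations are not set against each other, since Gm12415 takes up a large share of the Lgr5 GL total.

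Few of the 32 genes passed the test at any time point, and those that did moved in different directions. A gene was called when its adjusted p (edgeR's quasi-likelihood test, Benjamini-Hochberg over all genes tested) was under 0.05 and its log2 fold change against 0w was over 1 in size. In Lrig1 GL cells 4 were called over the whole time course (Pdia3, P4hb, Ssr1 and Syvn1), where 1.63% of all genes were. At 8w pw1 P4hb and Syvn1 were called lower (2.82% of all genes called), and at 1w pw2 Pdia3 and Ssr1 were called higher and Syvn1 lower (1.23%). None was called at 1w pw1 (0.217%), 2w pw1 (0%) or 4w pw1 (0.0419%), where 4, 2 and 1 of the 32 had an unadjusted p under 0.05 and DESeq2 called 1, 0 and 0. Among Lgr5 GL comparisons 1 gene, Dnajb9, was called over the time course (1.13%) and at 4w pw1 (0.155%), and it was lower. None was called at 1w pw1 (1.29%), 2w pw1 (0%), 8w pw1 (0%) or 1w pw2 (0%), where 7, 2, 1 and 3 had an unadjusted p under 0.05 and DESeq2 called 2, 1, 0 and 0. With surrogate variables (sva), which the study's methods used and the main test here did not, none of these calls held. In bulk samples, a lower level can come from fewer cells of a type or from less RNA per cell, and these cannot be told apart.

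**Figure D2:**
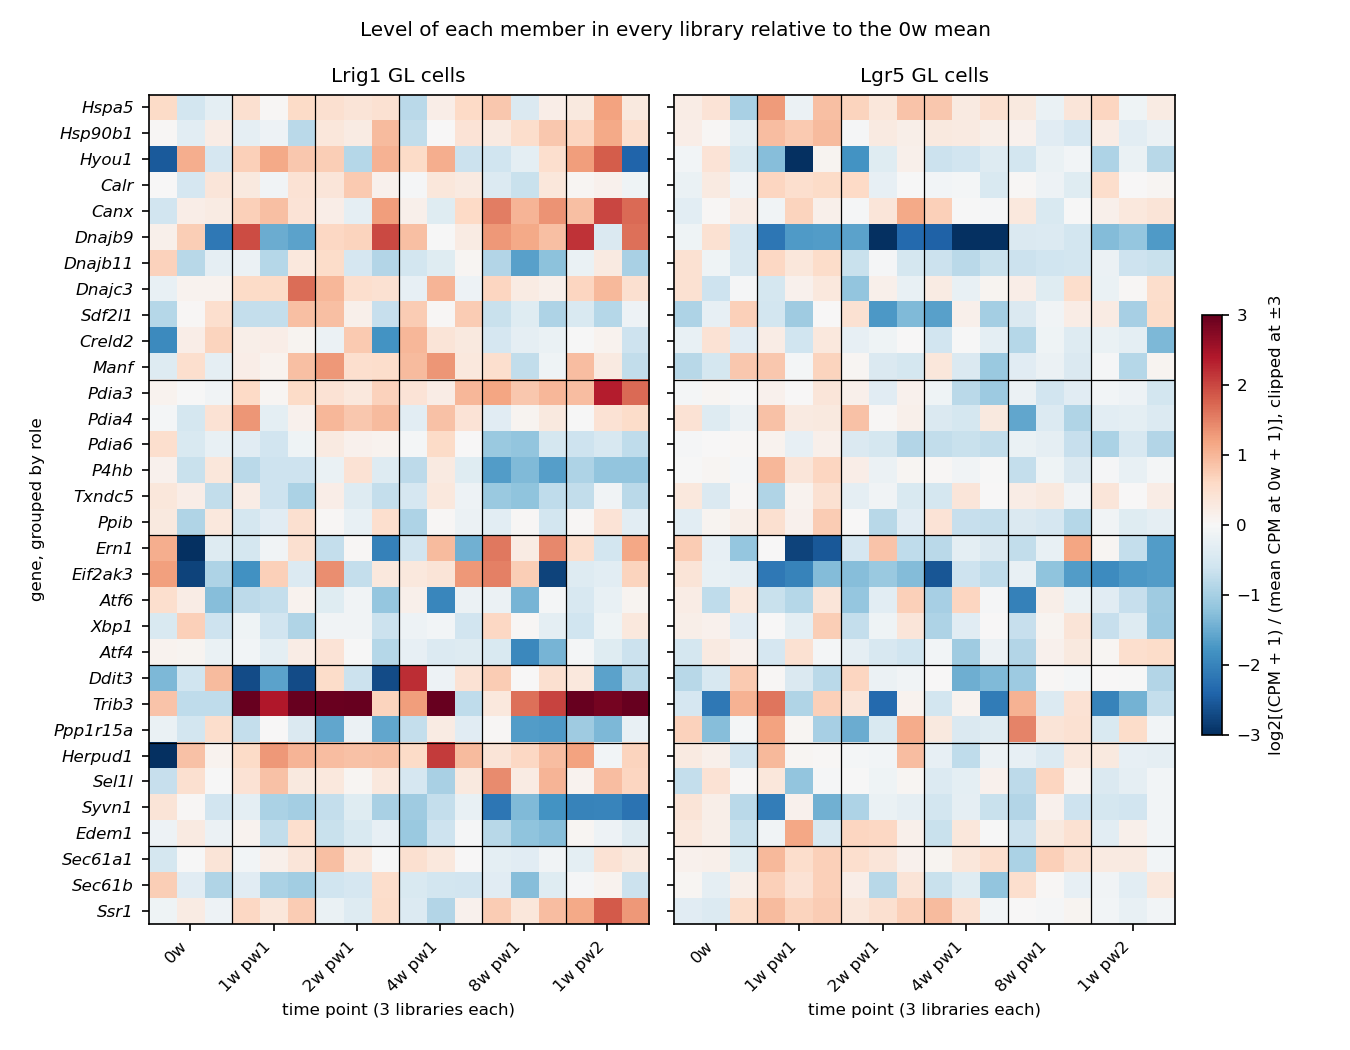
Each cell gives log2[(CPM + 1) / (mean CPM at 0w + 1)] of 1 gene in 1 library, clipped at 3 in size, with the 32 genes in rows grouped by role and the 3 libraries of each time point side by side for Lrig1 GL (left) and Lgr5 GL cells (right). Syvn1 and P4hb are blue and Canx, Pdia3 and Ssr1 red in the 3 Lrig1 GL libraries at 1w pw2, and Dnajb9 is blue in the Lgr5 GL libraries from 1w pw1 to 4w pw1.

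Of the 11 lumenal chaperones and cochaperones, none was called in Lrig1 GL cells at any time point and 1 was called in Lgr5 GL cells. Hspa5, the central ER chaperone, stood at 321, 146 and 174 CPM in the Lrig1 GL libraries at 0w, 299.9, 219 and 319 CPM at 1w pw1, and 260.5, 495 and 264 CPM at 1w pw2. The Lgr5 GL libraries held 165, 189 and 71.3 CPM at 0w, 343, 126 and 268 CPM at 1w pw1 and 224, 129.8 and 168 CPM at 1w pw2. The groups overlapped in both populations, and the log2 fold change at 1w pw1 was 0.79 (SE 0.38, adjusted p = 0.269) in Lgr5 GL and 0.39 (SE 0.40, adjusted p = 0.789) in Lrig1 GL cells. At the other time points of Lrig1 GL cells Hspa5 stood at 299, 278 and 295 CPM at 2w pw1, 120.5, 246 and 322 CPM at 4w pw1 and 372, 159 and 245 CPM at 8w pw1. Those of Lgr5 GL cells were 228, 179 and 259.6 CPM at 2w pw1, 249.9, 170.1 and 199 CPM at 4w pw1 and 174, 124 and 182 CPM at 8w pw1. No time point of either population stood clear of 0w.

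Hsp90b1, the ER paralog of Hsp90, stood at 180.2, 161 and 126 CPM in Lgr5 GL cells at 0w and at 299, 267 and 301 CPM at 1w pw1. All 3 libraries at 1w pw1 lay above all libraries of the other 5 time points, which ran from 110 to 190 CPM. The log2 fold change of 0.89 (SE 0.24) did not pass the test across all genes (adjusted p = 0.0695), and neither did the difference of 1w pw2 from 1w pw1, -0.96 (SE 0.24, adjusted p = 0.0774). Hsp90b1 in Lrig1 GL cells stood at 293, 229.8 and 333 CPM at 0w, 236, 257 and 163 CPM at 1w pw1 and 447, 626 and 403 CPM at 1w pw2. There the 1w pw2 libraries lay above those of both other time points, with a log2 fold change against 0w of 0.79 (SE 0.32, adjusted p = 0.201). With the trend on GC content removed, this value turned its sign, to -0.088. The other Lrig1 GL libraries held 363, 337 and 554 CPM at 2w pw1, 169.8, 287 and 379.9 CPM at 4w pw1 and 344, 413 and 496 CPM at 8w pw1, with 2w pw1 and 8w pw1 also above 0w. The other Lgr5 GL libraries held 153, 187 and 175 CPM at 2w pw1, 189.6, 187 and 177 CPM at 4w pw1, 171, 123 and 109.7 CPM at 8w pw1 and 181, 126 and 138 CPM at 1w pw2.

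Calr and Canx, the lectin chaperones that bind sugar chains of new glycoproteins, were not called in either population. Calr stood at 169, 231 and 179 CPM in Lgr5 GL cells at 0w and at 300.1, 275 and 288 CPM at 1w pw1, without overlap (log2 fold change 0.57, SE 0.26, adjusted p = 0.240). At the other time points it stood at 291, 163 and 190.2 CPM at 2w pw1, 182, 184 and 139.9 CPM at 4w pw1, 198, 173 and 149.6 CPM at 8w pw1 and 279, 194 and 203 CPM at 1w pw2, all overlapping with 0w. Calr in Lrig1 GL cells stood at 290.5, 202 and 375 CPM at 0w, 357, 267 and 391 CPM at 1w pw1, 372, 503 and 318 CPM at 2w pw1, 281, 366 and 351 CPM at 4w pw1, 217, 182 and 367 CPM at 8w pw1 and 301, 318 and 264 CPM at 1w pw2. There each time point overlapped with 0w. Canx stood at 253, 433 and 452 CPM in Lrig1 GL cells at 0w, at 1107, 776 and 971 CPM at 8w pw1, and at 714, 1522 and 1233 CPM at 1w pw2. Both later groups lay wholly above 0w, by 1.33 (SE 0.39, adjusted p = 0.0648) and 1.61 (SE 0.39, adjusted p = 0.0532) on the log2 scale, just outside the threshold. With the GC trend removed they were 0.38 (adjusted p = 0.537) and 0.75 (adjusted p = 0.255). The 1w pw1 libraries (625, 712 and 504 CPM of Canx), with a GC content of 49.1 to 49.8%, also lay wholly above 0w. Those of 2w pw1 (439, 313 and 904 CPM) and 4w pw1 (420, 295 and 578 CPM) overlapped with 0w. Without 2w pw1 library b or c, Canx was called at 1w pw2 (adjusted p = 0.0495 and 0.0264), as it was, barely under the threshold, without 4w pw1 library c. Without 2w pw1 library c also at 8w pw1 (adjusted p = 0.0386). Canx in Lgr5 GL cells ran from 208 to 633 CPM with no time point apart from 0w.

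Dnajb9 (ERdj4), a cochaperone that helps Hspa5 bind Ern1, was the 1 chaperone called. Its Lgr5 GL libraries held 42.2, 64.5 and 32.4 CPM at 0w, 9.46, 13.6 and 13.9 CPM at 1w pw1, 14.7, 3.01 and 8.49 CPM at 2w pw1, and 7.78, 3.77 and 4.71 CPM at 4w pw1. At 8w pw1 it stood at 34.0, 34.6 and 31.4 CPM and at 1w pw2 at 18.2, 20.2 and 13.6 CPM. The libraries from 1w to 4w and at 1w pw2 lay below all at 0w, and those at 8w pw1 overlapped with 0w. At 4w pw1, where the 3 libraries held 8, 9 and 7 reads of it, the log2 fold change was -3.13 (SE 0.57, adjusted p = 0.0333). The call was lost without 0w library a or b, any 1 library at 4w pw1, 8w pw1 library b or c, or any 1 library at 1w pw2 (adjusted p up to 0.211). At 1w pw1 the change was -1.91 (SE 0.52, adjusted p = 0.0703) and at 2w pw1 -2.40 (SE 0.52, adjusted p = 0.154). The summed keratinocyte markers of Lgr5 GL cells were 24881 to 32322 CPM at 0w. They lay below this at 2w pw1 (13241 to 21184 CPM) and 4w pw1 (13800 to 18255 CPM). At 1w pw1 (27452 to 38363 CPM) and 1w pw2 (20417 to 26911 CPM), where Dnajb9 was also below 0w, they overlapped with 0w. The part of the markers in the result was not tested. Dnajb9 in Lrig1 GL cells stood at 19.5, 30.05 and 3.20 CPM at 0w, 71.2, 5.66 and 5.08 CPM at 1w pw1, 27.7, 28.3 and 72.0 CPM at 2w pw1, 33.9, 17.5 and 20.9 CPM at 4w pw1, 44.8, 39.7 and 33.8 CPM at 8w pw1 and 82.1, 12.7 and 57.2 CPM at 1w pw2. The scatter within a time point was wide, and the 8w pw1 libraries alone stood clear of 0w.

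The other cochaperones and small ER factors were not called. Dnajc3 (p58IPK), which restrains Eif2ak3, stood at 62.6, 79.2 and 78.8 CPM in Lrig1 GL cells at 0w and at 110.1, 109.7 and 237 CPM at 1w pw1, without overlap (log2 fold change 1.06, SE 0.39, adjusted p = 0.325). Dnajb11 (ERdj3) in Lgr5 GL cells stood at 118, 95.7 and 112 CPM at 1w pw1 and at 66.7, 48.8 and 47.4 CPM at 1w pw2 (-0.997, SE 0.29, adjusted p = 0.124). Sdf2l1, a partner of Dnajb11, stood at 10.3, 19.9 and 27.5 CPM at 0w and 13.7, 10.1 and 17.1 CPM at 1w pw2 in Lrig1 GL cells. Between them it stood at 11.4, 11.3 and 36.9 CPM at 1w pw1, 36.6, 21.4 and 11.5 CPM at 2w pw1, 33.4, 19.9 and 33.1 CPM at 4w pw1 and 11.7, 14.7 and 9.65 CPM at 8w pw1. Sdf2l1 in Lgr5 GL cells stood at 9.98, 16.6 and 33.4 CPM at 0w, 13.4, 9.06 and 20.2 CPM at 1w pw1, 27.8, 5.37 and 7.40 CPM at 2w pw1, 5.83, 22.2 and 9.41 CPM at 4w pw1, 14.6, 18.5 and 23.4 CPM at 8w pw1 and 23.9, 9.50 and 29.7 CPM at 1w pw2. Every time point overlapped with 0w in both populations. Hyou1, the ER Hsp110 that releases ADP from Hspa5, ran from 0.513 to 29.6 CPM in Lrig1 GL libraries, Creld2, which binds isomerases, from 13.9 to 111 CPM, and Manf, a secreted stress factor, from 18.3 to 80.3 CPM.

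The 6 disulfide and proline isomerases split. Pdia3 (ERp57), the isomerase that works with Calr and Canx, stood at 291, 268 and 254 CPM in Lrig1 GL cells at 0w, at 618, 477 and 539 CPM at 8w pw1, and at 517, 1386 and 883 CPM at 1w pw2. All libraries of 1w pw2 and 8w pw1 lay above 0w, with 2w pw1 (365, 338 and 438 CPM) and 4w pw1 (359, 316 and 544 CPM) above it too. At 1w pw2 the rise passed the test, at a log2 fold change of 1.78 (SE 0.32, adjusted p = 0.0191), or 3.43-fold. The call was lost without 0w library 1 or 1w pw2 library 2 or 3 (adjusted p up to 0.118). Pdia3 in Lgr5 GL cells stood at 308, 332 and 315 CPM at 0w and at 299.8, 288 and 216 CPM at 1w pw2, below 0w in all 3 libraries but not called (-0.25, SE 0.26, adjusted p = 1). Its other Lgr5 GL libraries held 347, 319 and 413 CPM at 1w pw1, 353, 252 and 346 CPM at 2w pw1, 293, 180.2 and 149 CPM at 4w pw1 and 279.6, 215 and 253 CPM at 8w pw1, with 4w pw1 and 8w pw1 below 0w. At 1w pw1 the Lrig1 GL libraries held 414, 281 and 407 CPM, overlapping with 0w.

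P4hb went the other way in Lrig1 GL cells. It stood at 1788, 1019.6 and 2059 CPM at 0w, at 507, 646 and 518 CPM at 8w pw1 and at 855, 710.2 and 709 CPM at 1w pw2. Both later groups lay wholly below 0w. At 8w pw1 P4hb fell by 1.54 on the log2 scale (SE 0.31, adjusted p = 0.0238), or 2.91-fold, and this call was lost without 0w library 1 or 3 or any 1 library at 8w pw1 (adjusted p up to 0.0878). At 1w pw2 the log2 fold change was -1.10 (SE 0.31, adjusted p = 0.0813). P4hb in Lgr5 GL cells stood at 682, 714 and 672 CPM at 0w, at 1386, 879.7 and 1075 CPM at 1w pw1 and at 677, 595 and 664 CPM at 1w pw2. There 1w pw1 lay above both other groups, at a log2 fold change of 0.69 (SE 0.21, adjusted p = 0.101). Its other Lgr5 GL libraries held 785, 611 and 723 CPM at 2w pw1, 712, 639 and 679 CPM at 4w pw1 and 422, 628 and 514 CPM at 8w pw1, with 8w pw1 below 0w. The other Lrig1 GL libraries held 922, 1061 and 1046 CPM at 1w pw1, 1423, 2175 and 1239 CPM at 2w pw1 and 948, 1962 and 1253 CPM at 4w pw1, overlapping with 0w.

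The remaining isomerases were not called. Pdia6 stood at 411, 212 and 247 CPM at 0w and at 134, 128 and 199.9 CPM at 8w pw1 in Lrig1 GL cells, without overlap (-0.92, SE 0.29, adjusted p = 0.0815). Pdia4 (ERp72) stood at 65.7, 47.1 and 92.2 CPM at 0w, 137, 120.3 and 134 CPM at 2w pw1 and 67.5, 93.2 and 99.97 CPM at 1w pw2 in Lrig1 GL cells. Pdia4 in Lgr5 GL cells stood at 115, 64.1 and 74.8 CPM at 0w, 158, 102 and 103 CPM at 1w pw1 and 67.3, 69.1 and 63.6 CPM at 1w pw2. Its 1w pw2 libraries all lay below those of 1w pw1. The other Pdia4 values were 174, 55.4 and 75.2 CPM at 1w pw1, 54.3, 126 and 91.3 CPM at 4w pw1 and 53.9, 72.1 and 83.6 CPM at 8w pw1 in Lrig1 GL cells. For Lgr5 GL cells the Pdia4 values were 156, 86.1 and 94.2 CPM at 2w pw1, 62.2, 58.7 and 104 CPM at 4w pw1 and 28.3, 63.9 and 45.1 CPM at 8w pw1. Against 0w, Lrig1 GL libraries stood clear above at 2w pw1 and Lgr5 GL libraries clear below at 8w pw1. Txndc5 (ERp46) ran from 40.9 to 122 CPM and Ppib, the ER cyclophilin B, from 37.3 to 103 CPM over the Lrig1 GL libraries.

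**Figure D3:**
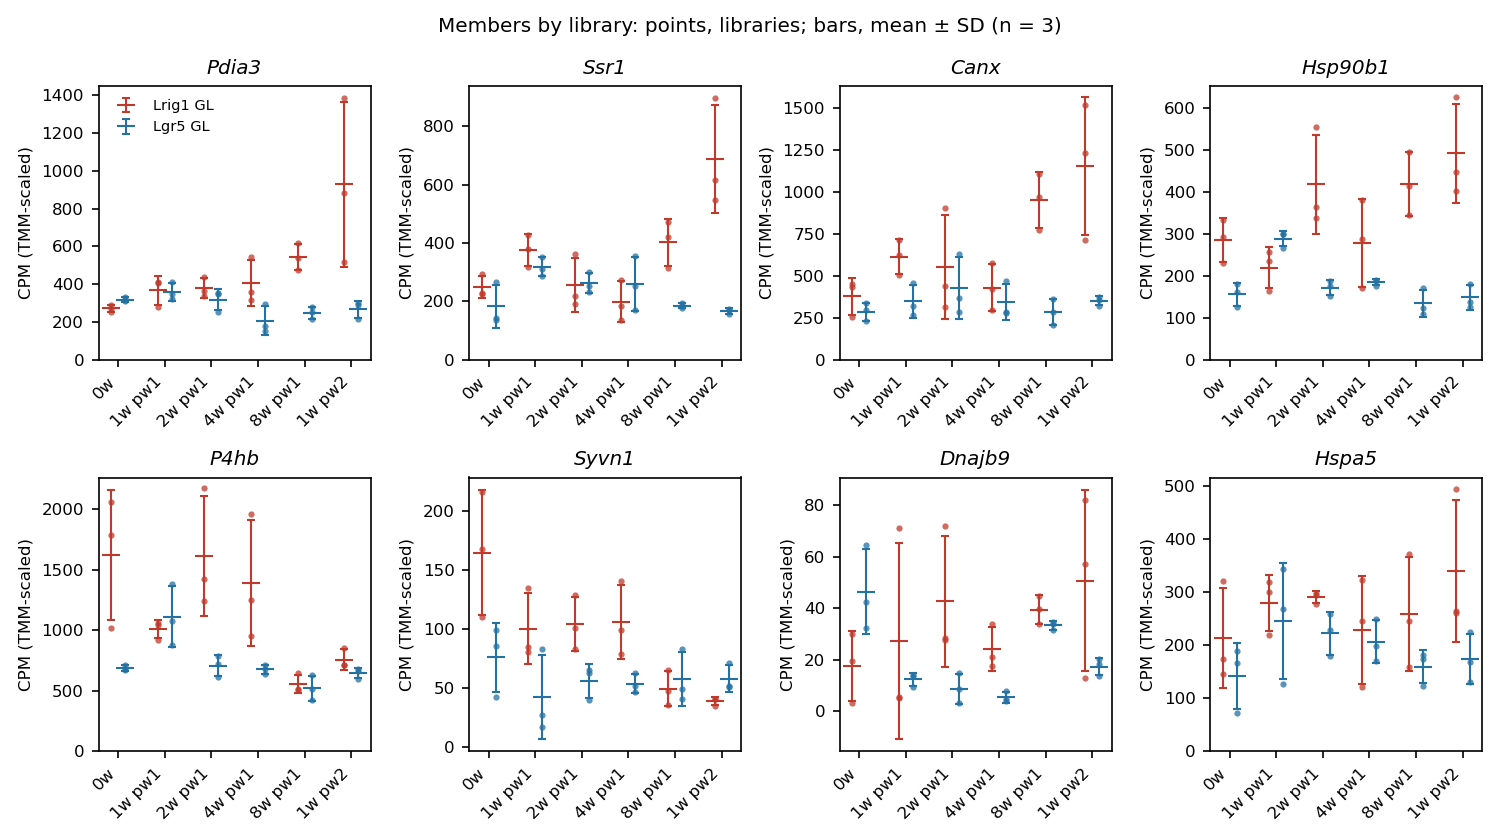
CPM (TMM-scaled) of 8 genes by time point, with a point for each library and bars for mean ± SD (n = 3), Lrig1 GL in red and Lgr5 GL in blue. Pdia3 in Lrig1 GL cells reached 1386 CPM in a single library at 1w pw2, and P4hb was lowest at 8w pw1 (507 to 646 CPM). In Lgr5 GL cells Hsp90b1 peaked at 1w pw1 with 301 CPM. Dnajb9 in Lgr5 GL cells lay below 0w at each time point but 8w pw1, and reached 3.01 CPM in a single library at 2w pw1.

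None of the 5 sensors and transcription factors was called in either population. Ern1, the kinase and RNase that splices Xbp1, was counted 38, 0 and 10 times in the Lrig1 GL libraries at 0w, 77, 17 and 47 times at 8w pw1 and 27, 15 and 31 times at 1w pw2. The Lgr5 GL libraries counted it 47, 23 and 6 times at 0w, 18, 0 and 1 times at 1w pw1 and 47, 19 and 3 times at 1w pw2. Elsewhere it was counted 6, 7 and 27 times at 1w pw1, 11, 14 and 4 times at 2w pw1 and 11, 22 and 5 times at 4w pw1 in Lrig1 GL cells. The Lgr5 GL libraries there counted it 27, 53 and 14 times at 2w pw1, 3, 11 and 6 times at 4w pw1 and 7, 20 and 96 times at 8w pw1. All groups overlapped with 0w, and at these counts a difference within the spread of the libraries was not detectable. Eif2ak3, the kinase that slows translation, stood at 22.0, 14.1 and 13.4 CPM in Lgr5 GL cells at 0w, at 2.94, 3.40 and 6.14 CPM at 1w pw1 and at 3.76, 4.33 and 4.52 CPM at 1w pw2. All libraries of both groups lay below 0w, at log2 fold changes against 0w of -1.96 (SE 0.67, adjusted p = 0.134) and -1.97 (SE 0.66, adjusted p = 0.668). The other Lgr5 GL libraries held 6.21, 7.09 and 6.09 CPM at 2w pw1, 1.94, 10.5 and 9.41 CPM at 4w pw1 and 14.1, 6.58 and 4.53 CPM at 8w pw1, below 0w except at 8w pw1. Eif2ak3 in Lrig1 GL cells was counted 29, 0 and 4 times at 0w, 1, 9 and 9 times at 1w pw1, 38, 5 and 22 times at 2w pw1, 15, 10 and 31 times at 4w pw1, 51, 17 and 0 times at 8w pw1 and 9, 12 and 15 times at 1w pw2. No Lrig1 GL time point stood clear of 0w.

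Atf6, the sensor that is cleaved into a transcription factor, stood at 61.6, 50.4 and 17.3 CPM at 0w and at 30.7, 36.7 and 45.4 CPM at 1w pw2 in Lrig1 GL cells. Between them it stood at 24.7, 26.0 and 46.6 CPM at 1w pw1, 33.1, 39.7 and 18.6 CPM at 2w pw1, 47.8, 10.3 and 38.2 CPM at 4w pw1 and 38.2, 15.9 and 41.3 CPM at 8w pw1. Atf6 in Lgr5 GL cells stood at 30.6, 15.1 and 33.1 CPM at 0w, 16.3, 14.2 and 34.2 CPM at 1w pw1, 11.1, 21.04 and 43.5 CPM at 2w pw1, 12.6, 41.5 and 25.6 CPM at 4w pw1, 5.74, 29.7 and 22.8 CPM at 8w pw1 and 20.6, 16.0 and 12.05 CPM at 1w pw2. All groups overlapped with 0w in both populations. Xbp1, the factor made by splicing, stood at 93.4, 212 and 83.3 CPM at 0w and at 85.4, 119 and 160.5 CPM at 1w pw2 in Lrig1 GL cells, again with overlap. Xbp1 in Lgr5 GL cells stood at 99.6, 95.9 and 68.9 CPM at 0w, 89.05, 71.3 and 148 CPM at 1w pw1 and 53.8, 67.5 and 40.7 CPM at 1w pw2, with 1w pw2 below both (-0.70 against 0w, adjusted p = 0.829). The other Xbp1 values were 118, 87.1 and 68.3 CPM at 1w pw1, 119.8, 119.7 and 82.1 CPM at 2w pw1, 117, 123 and 87.2 CPM at 4w pw1 and 198, 133 and 106 CPM at 8w pw1 in Lrig1 GL cells. For Lgr5 GL cells the Xbp1 values were 53.2, 79.9 and 113 CPM at 2w pw1, 45.7, 69.1 and 89.4 CPM at 4w pw1 and 53.9, 93.3 and 116 CPM at 8w pw1. All overlapped with 0w. Atf4, the factor translated when Eif2ak3 is active, stood at 99.6, 97.1 and 79.4 CPM at 0w and at 67.0, 23.2 and 34.3 CPM at 8w pw1 in Lrig1 GL cells (-1.14, SE 0.40, adjusted p = 0.107). The 8w pw1 libraries were all below those of 0w, whereas 1w pw2 (88.2, 71.8 and 58.5 CPM) overlapped with 0w. The remaining Lrig1 GL values of Atf4 were 86.4, 74.7 and 108 CPM at 1w pw1, 123, 91.3 and 50.7 CPM at 2w pw1 and 77.2, 69.1 and 70.4 CPM at 4w pw1, with 4w pw1 below 0w. Atf4 in Lgr5 GL cells stood at 35.4, 61.8 and 56.5 CPM at 0w, 35.6, 70.8 and 49.2 CPM at 1w pw1, 42.6, 36.3 and 33.7 CPM at 2w pw1, 48.6, 23.9 and 45.05 CPM at 4w pw1, 27.4, 56.5 and 62.6 CPM at 8w pw1 and 53.8, 72.8 and 75.7 CPM at 1w pw2, overlapping with 0w throughout.

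The 3 stress output genes were not called. Trib3, and Ddit3 in Lrig1 GL cells, were close to the detection floor in several libraries. Ppp1r15a held at least 8 counts in each Lrig1 GL library and at least 20 in each Lgr5 GL library. Ddit3 (CHOP), the factor linked to cell death under lasting stress, was counted 3, 8 and 18 times in the Lrig1 GL libraries at 0w, 0, 1 and 0 times at 1w pw1, 27, 9 and 15 times at 8w pw1 and 15, 3 and 4 times at 1w pw2. Ddit3 in Lgr5 GL cells stood at 7.03, 9.34 and 23.8 CPM at 0w, 13.7, 9.62 and 7.23 CPM at 1w pw1, 13.6, 13.3 and 6.78 CPM at 1w pw2. Its other Lgr5 GL libraries held 21.6, 11.8 and 12.4 CPM at 2w pw1, 13.6, 4.19 and 4.71 CPM at 4w pw1 and 5.74, 13.6 and 12.8 CPM at 8w pw1, with overlap throughout. The other Lrig1 GL libraries counted it 19, 5 and 0 times at 2w pw1 and 58, 6 and 15 times at 4w pw1, so 1w pw1 was the 1 group wholly below 0w. Trib3, the pseudokinase that Atf4 and Ddit3 induce, was counted 4, 0 and 0 times in the Lrig1 GL libraries at 0w, 27, 7 and 68 times at 1w pw1 and 66, 30 and 20 times at 1w pw2. Every library of the later groups held more than those of 0w, at adjusted p = 0.238 and 0.130, and no fold is given because its size depends on the count added to the zeros. DESeq2 and edgeR's likelihood ratio test called Trib3 at both time points. Trib3 in Lgr5 GL cells was counted 18, 3 and 40 times at 0w and 6, 10 and 9 times at 1w pw2. Ppp1r15a (GADD34), which restarts translation, ran from 4.82 to 26.3 CPM in Lrig1 GL and from 5.78 to 52.1 CPM in Lgr5 GL libraries.

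Of the 4 degradation genes, Syvn1 was called in Lrig1 GL cells. Syvn1 (HRD1), the ubiquitin ligase that marks misfolded ER proteins, stood at 216, 168 and 110.2 CPM at 0w, 135, 84.8 and 80.8 CPM at 1w pw1, 36.05, 65.3 and 47.2 CPM at 8w pw1 and 40.6, 40.8 and 34.9 CPM at 1w pw2. The last 2 groups lay wholly below 0w. Syvn1 fell by 1.74 on the log2 scale at 8w pw1 (SE 0.36, adjusted p = 0.0238) and by 2.08 at 1w pw2 (SE 0.37, adjusted p = 0.0164), or 4.24-fold. Without 0w library 1 neither call held, the first was also lost without any 1 library at 8w pw1 (adjusted p up to 0.106) and the second without 1w pw2 library 2 or 3 (adjusted p up to 0.104). Syvn1 in Lgr5 GL cells stood at 99.2, 85.7 and 42.7 CPM at 0w and at 52.0, 51.0 and 71.2 CPM at 1w pw2, with overlap (-0.39, SE 0.48, adjusted p = 1). Its other Lgr5 GL libraries held 17.3, 83.2 and 27.3 CPM at 1w pw1, 39.5, 65.5 and 63.1 CPM at 2w pw1, 51.5, 62.9 and 47.1 CPM at 4w pw1 and 40.6, 83.4 and 49.3 CPM at 8w pw1, overlapping with 0w. The other Lrig1 GL libraries held 101, 128 and 83.1 CPM at 2w pw1 and 78.7, 99.3 and 140.2 CPM at 4w pw1. Sel1l, the partner of Syvn1, was not called, and in Lrig1 GL cells it stood at 41.6, 94.6 and 67.9 CPM at 0w and at 73.1, 131 and 107 CPM at 1w pw2.

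Edem1, which takes misfolded glycoproteins to degradation, stood at 105, 140.5 and 103 CPM at 0w and at 65.2, 49.5 and 47.2 CPM at 8w pw1 in Lrig1 GL cells (-1.10, SE 0.36, adjusted p = 0.0863), and at 1w pw2 (122, 105 and 88.1 CPM) it overlapped with 0w. Herpud1, a scaffold of the same complex, stood at 1.54, 59.3 and 33.9 CPM at 0w and at 74.1, 29.6 and 50.6 CPM at 1w pw2 in Lrig1 GL cells, a spread set by 1 library with 3 reads. Between them it stood at 47.5, 79.2 and 64.6 CPM at 1w pw1, 60.8, 59.2 and 59.5 CPM at 2w pw1, 47.8, 137 and 61.7 CPM at 4w pw1 and 41.5, 49.5 and 61.1 CPM at 8w pw1. Herpud1 in Lgr5 GL cells stood at 54.5, 50.2 and 29.98 CPM at 0w, 89.7, 46.4 and 46.1 CPM at 1w pw1, 43.2, 42.5 and 85.5 CPM at 2w pw1, 37.9, 26.0 and 39.7 CPM at 4w pw1, 37.5, 33.4 and 56.3 CPM at 8w pw1 and 54.9, 37.7 and 36.9 CPM at 1w pw2. Every group overlapped with 0w in both populations.

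Of the 3 translocation genes, Ssr1 was called. Ssr1 (TRAP alpha), a subunit of the complex beside the Sec61 channel, stood at 229, 294 and 224 CPM in Lrig1 GL cells at 0w, at 381, 318 and 426 CPM at 1w pw1 and at 548, 898 and 615 CPM at 1w pw2. The 3 groups did not overlap. At 1w pw2 Ssr1 rose by a log2 fold change of 1.46 (SE 0.32, adjusted p = 0.0360), or 2.76-fold, and the call was lost without any 1 library of 0w or of 1w pw2 or without 1w pw1 library 1 (adjusted p up to 0.203). Ssr1 in Lgr5 GL cells stood at 143, 137 and 267 CPM at 0w, at 353, 288 and 312 CPM at 1w pw1 and at 171, 157 and 173 CPM at 1w pw2. The 1w pw1 libraries lay above both other groups, with 0.80 (SE 0.29, adjusted p = 0.149) against 0w. The other Ssr1 values were 218, 191 and 363 CPM at 2w pw1, 186, 136 and 274 CPM at 4w pw1 and 420.2, 313 and 473 CPM at 8w pw1 in Lrig1 GL cells. For Lgr5 GL cells the Ssr1 values were 233, 254 and 300.1 CPM at 2w pw1, 355, 251 and 171 CPM at 4w pw1 and 185, 178 and 193 CPM at 8w pw1. Of these groups, Lrig1 GL 8w pw1 alone stood clear of 0w. Sec61b, the beta subunit of the channel, stood at 45.6, 36.3 and 49.6 CPM in Lgr5 GL cells at 0w and at 73.1, 59.4 and 72.8 CPM at 1w pw1, and Sec61a1, its pore, at 199.9, 204 and 142 CPM and at 359, 264 and 301 CPM. Both were without overlap and not called (0.64 and 0.76 on the log2 scale).

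At 1w pw1 of Lgr5 GL cells, 22 of the 32 genes had a positive log2 fold change, with a median of 0.25 against -0.08 over all genes tested. The summed level of the 32 genes was 4695 ± 483 CPM (SD, n = 3) at 1w pw1, with libraries from 4163 to 5105 CPM, and 3494 ± 100 CPM at 0w, with libraries from 3391 to 3591 CPM. At 1w pw2 it was 3261 ± 159 CPM, with libraries overlapping those of 0w. As a share of all counts, without TMM, the 1w pw1 libraries (0.340 to 0.541%) still lay above 0w (0.261 to 0.339%), barely. On that scale 1w pw2 (0.358 to 0.387%) lay above 0w as well, and overlapped with 1w pw1. The total there includes Gm12415, which took 29.04 to 45.4% of the counts at 0w and 12.04 to 49.7% at 1w pw1. At 1w pw2 Gm12415 took 16.5 to 27.6%. Its part in these shares was not tested, so no conclusion is drawn from them. All 3 libraries at 1w pw1 were above all 3 at 0w for Sec61b, Sec61a1, Calr, Hsp90b1, P4hb and Ssr1, or 6 of 32 genes where 9.98% of all genes were. For Eif2ak3 and Dnajb9, or 2 of 32, they were below, against 9.8% of all genes. No gene of the module passed the test at this time point, and without 0w library c 1 gene, Ssr1, did.

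Against 1w pw1, the second wound was followed by lower values in these cells for 22 of the 32 genes. All 3 libraries at 1w pw2 lay below all 3 at 1w pw1 for 11 of the 32 genes (Pdia3, Sec61b, Pdia4, Sec61a1, Ppib, Hsp90b1, Xbp1, P4hb, Pdia6, Ssr1 and Dnajb11), where 11% of all genes did, and above for 0, where 13.7% did. The median log2 difference of the module was -0.43 and that of all genes 0.09. The summed keratinocyte markers moved with it, at 20417 to 26911 CPM at 1w pw2 against 27452 to 38363 CPM at 1w pw1, without overlap, and their part in the result was not tested. By edgeR's quasi-likelihood test 0 of the 32 were called between 1w pw2 and 1w pw1 (0.266% of all genes), with 9 at an unadjusted p under 0.05, and DESeq2 called 5 and limma-voom 1. In Lrig1 GL cells 0 were called in the same comparison (0% of all genes), with 5 at an unadjusted p under 0.05 and 3 called by DESeq2.

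**Figure D4:**
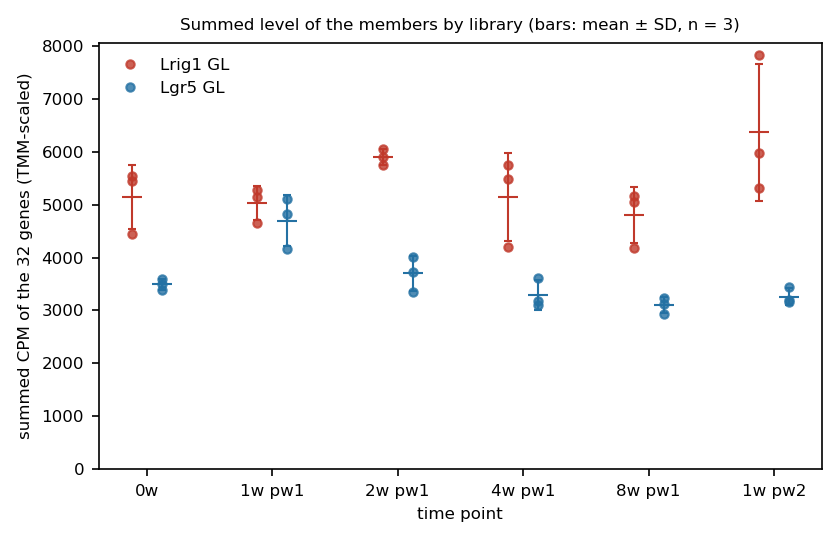
Summed CPM (TMM-scaled) of the 32 genes in every library by time point, with bars for mean ± SD (n = 3). The Lgr5 GL libraries (blue) at 1w pw1 sit at 4163 to 5105 CPM, above the 3391 to 3591 CPM of 0w, and the Lrig1 GL libraries (red) at 1w pw2 spread from 5318 to 7821 CPM.

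The sum in Lrig1 GL cells hid genes that lay on opposite sides of 0w. It was 5144 ± 608 CPM at 0w, 5027 ± 323 CPM at 1w pw1, 5900 ± 149 CPM at 2w pw1 and 5144 ± 830 CPM at 4w pw1. At 8w pw1 it was 4798 ± 532 CPM and at 1w pw2 6369 ± 1299 CPM. All libraries of 2w pw1 (5749 to 6047 CPM) lay above those of 0w (4444 to 5538 CPM), and the other groups overlapped with 0w. As a share of all counts, all 8w pw1 libraries (0.390 to 0.442%) lay below all 0w libraries (0.483 to 0.580%). On that scale 2w pw1 (0.530 to 0.642%) and 1w pw2 (0.517 to 0.665%) overlapped with 0w. At 8w pw1 all 3 libraries lay above 0w for 6 genes (Pdia3, Hsp90b1, Canx, Dnajb9, Ssr1 and Dnajc3), against 14.8% of all genes, and below for 7 (Edem1, P4hb, Pdia6, Txndc5, Atf4, Dnajb11 and Syvn1), against 12.8%. At 1w pw2 they lay above for Pdia3, Trib3, Hsp90b1, Canx, Ssr1 and Dnajc3, against 13.9%, and below for P4hb, Pdia6 and Syvn1, against 10.4%.

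Base composition moved with these opposite changes. In Lrig1 GL cells, of all genes with transcripts under 45% GC, 80.8% had a positive log2 fold change at 8w pw1 and 75.3% at 1w pw2, whereas of those over 50% GC 25.9% and 27.3% did. The 5 genes of the module under 45% GC (Dnajb9, Hsp90b1, Canx, Dnajc3 and Ssr1) were positive at both time points, and 5 and 8 of the 18 over 50% were. Pdia3 has 46.9% GC, Ssr1 44.6%, P4hb 53.8% and Syvn1 56.6%. Once each library's dependence on GC content was taken out, Pdia3 kept its call at 1w pw2 (1.41, SE 0.30, adjusted p = 0.0473). Without that trend Ssr1 stood at 0.89 (adjusted p = 0.157) and Syvn1 at -1.66 (adjusted p = 0.0674) at 1w pw2, and P4hb at -1.16 (adjusted p = 0.0668) and Syvn1 at -1.24 (adjusted p = 0.1252) at 8w pw1. In Lgr5 GL cells, where 49.7% of the genes over 50% GC were positive at 1w pw2, Dnajb9 kept its call at 4w pw1 (-3.25, SE 0.63, adjusted p = 0.0344).

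**Figure D5:**
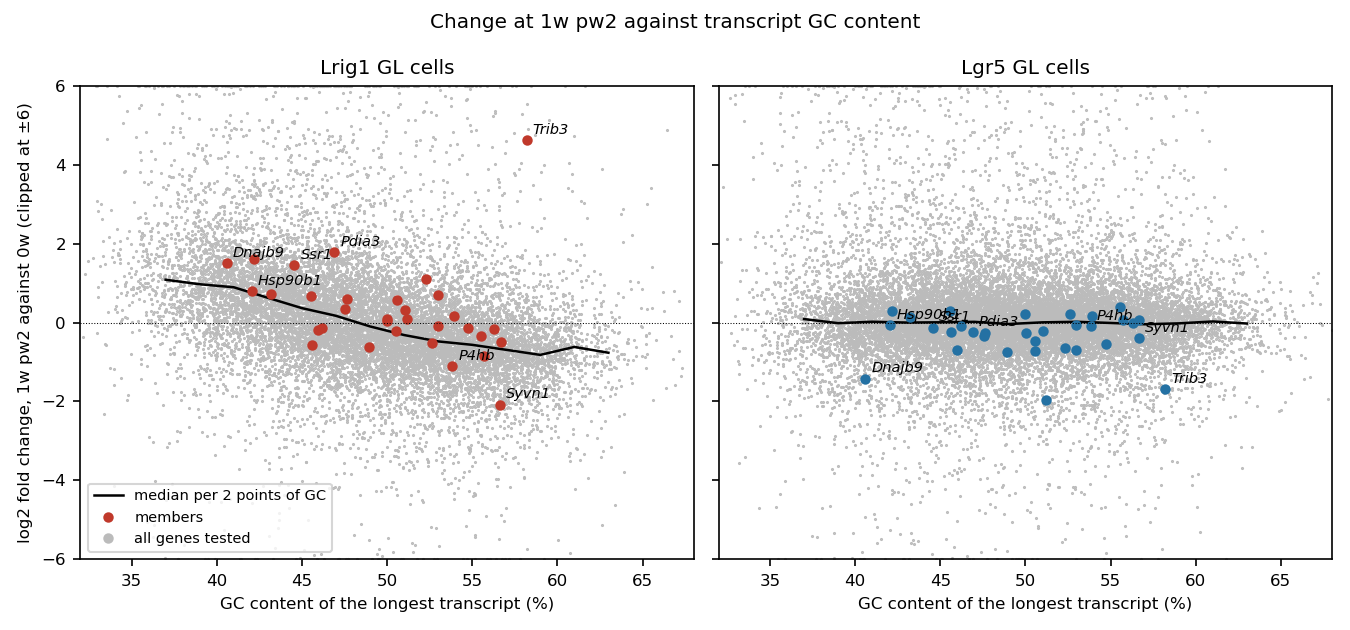
Log2 fold change at 1w pw2 against 0w (vertical, clipped at 6 in size) against the GC content of the longest transcript (horizontal, %), for all genes tested (grey), their median in steps of GC (line) and the 32 genes (coloured), Lrig1 GL left and Lgr5 GL right. The line falls from low to high GC in Lrig1 GL cells and lies near 0 in Lgr5 GL cells, with Pdia3 at 1.78 above the line on the left and Syvn1 at -2.08 below it.

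The changes of both populations were set against each other in 1 model of all 36 libraries and 16153 genes, by the adjusted p alone. For the change from 0w to 1w pw2, 1 of the 32 genes was called (0.155% of all genes). This was Pdia3, whose log2 fold change was greater in Lrig1 GL than in Lgr5 GL cells by 2.07 (SE 0.41, adjusted p = 0.0252). The call was lost without Lrig1 GL 0w library 1, Lrig1 GL 1w pw2 library 2 or 3, Lgr5 GL 0w library a or c or any 1 Lgr5 GL library at 1w pw2 (adjusted p up to 0.159), and with the GC trend removed the difference was 1.78 (adjusted p = 0.131). Ssr1 differed by 1.63 (SE 0.42, adjusted p = 0.0914). For the change from 0w to 1w pw1, 0 of the 32 were called (0.0495% of all genes), with 6 at an unadjusted p under 0.05 and 1 called by DESeq2. There P4hb differed by -1.40 (SE 0.37, adjusted p = 0.0952) and Hsp90b1 by -1.29 (SE 0.39, adjusted p = 0.128), the Lrig1 GL change being the lower, and without Lrig1 GL 0w library 2 P4hb was called (-1.64, adjusted p = 0.0238). For the change from 0w to 8w pw1, 0 were called (1.11%), with 7 at an unadjusted p under 0.05 and 1, Pdia3, called by DESeq2, while without Lrig1 GL 0w library 2 P4hb was called.

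At 0w itself 0 of the 32 genes differed between Lrig1 GL and Lgr5 GL cells (2.9% of all genes), with 6 at an unadjusted p under 0.05 and 1 called by DESeq2. P4hb came closest, at 1622 ± 539 CPM in Lrig1 GL and 689 ± 22.1 CPM in Lgr5 GL cells (log2 difference 0.89, SE 0.26, adjusted p = 0.0585). These CPM were scaled within each table and the difference over all 36 libraries together. It was called without 7 of the 36 libraries in turn (adjusted p as low as 0.0122, without Lrig1 GL 0w library 2) and in 4 of 10 other alternatives, among them the removal of the GC trend (1.19, adjusted p = 0.00748) and of Gm12415 from the table.

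The wider pathway was followed in 101 further genes for degradation, folding, translocation and glycosylation, Atf4 targets and regulators, of which 97 were tested in Lrig1 GL cells and 99 in those of Lgr5. In Lrig1 GL cells 3 of 97 were lower at 8w pw1, a share near the 2.82% of all genes called there: Dad1, an oligosaccharyltransferase subunit (-1.59, adjusted p = 0.0160), Fkbp2, a proline isomerase (-1.76, adjusted p = 0.0193), and Os9, the lectin that hands glycoproteins to Syvn1 (-1.54, adjusted p = 0.0340). At 1w pw2 2 of 97 were higher, where 1.23% of all genes were called: Erp44, which retains secreted proteins through disulfides (1.85, adjusted p = 0.0299), and Ssr3, a partner of Ssr1 (1.54, adjusted p = 0.0369). At 1w pw1, 2 of 99, both targets of Atf4, were higher in Lgr5 GL cells (1.29% of all genes called), Asns, asparagine synthetase (1.93, adjusted p = 0.0472), and Shmt2, a mitochondrial serine enzyme (1.39, adjusted p = 0.0303). Slc7a11, the cystine transporter, was the 1 gene called at 4w pw1 (0.155% of all genes), higher by 4.36 (adjusted p = 0.0193), at 329, 109.8 and 94.1 CPM against 12.9, 4.98 and 7.93 CPM at 0w. Over the time course 1 was called higher and 3 lower in Lrig1 GL cells (1.63% of all genes called) and 2 higher and 1 lower in Lgr5 GL cells (1.13%). In the other comparisons with 0w and between the wounds 0 were. The change to 8w pw1 differed between the populations for Erp44 and Ssr3, greater in Lrig1 GL cells, and for Dad1 and Fkbp2, lower in them (1.11% of all genes called). Fkbp2 already stood higher in Lrig1 GL than in Lgr5 GL cells at 0w (log2 difference 1.28, SE 0.34, adjusted p = 0.0331). At 1w pw2 Erp44 was also called in the difference between populations (2.41, SE 0.47, adjusted p = 0.0252), where 0.155% of all genes were. The calls of these further genes, and of the heat shock genes below, rest on the main fit alone. They were not checked with the GC trend removed, with surrogate variables or with libraries left out.

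Of 10 heat shock genes of the cytosol and mitochondria, set beside the ER genes as another chaperone system, Hsp90aa1 was higher in Lrig1 GL cells at 8w pw1 (1.46, adjusted p = 0.0404) and at 1w pw2 (1.55, adjusted p = 0.0425). Hspa1b was higher (2.14, adjusted p = 0.0363) and Hspa8 lower (-1.02, adjusted p = 0.0421) at 8w pw1. These were 3 of 10 genes at 8w pw1 and 1 of 10 at 1w pw2, where 2.82% and 1.23% of all genes were called. Hspa1a was lower in Lgr5 GL cells at 1w pw1 (-1.70, adjusted p = 0.0390), 1 of 10 where 1.29% of all genes were called. Hspb1 was called over the Lgr5 GL time course (adjusted p = 0.0280, 1.13% of all genes called), and its value farthest from 0w was -1.06 on the log2 scale, at 2w pw1. Hspa1a and Hspa1b are near-identical copies that can share reads, so their values are uncertain.

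Over the 18 libraries of each population, log2 CPM of Hspa5 was correlated with Hsp90b1, Pdia4, Calr, Xbp1, Ddit3 and Trib3, 12 relations in all, and none passed after adjustment. The closest was Hsp90b1 in Lgr5 GL cells, with Pearson's r = 0.547 (permutation p = 0.0190, adjusted p = 0.228) and Spearman's rho = 0.486 (permutation p = 0.0430, adjusted p = 0.516). Within time points r was 0.534, and without the 2 libraries farthest from the median of Hspa5 it was 0.336. Leaving out the farthest libraries narrows the range of Hspa5, which by itself can lower r, so no conclusion is drawn from that value. For Lrig1 GL cells r with Hsp90b1 was 0.433 (permutation p = 0.0721, adjusted p = 0.288), rho was 0.255 (permutation p = 0.307, adjusted p = 0.566) and r without the 2 farthest libraries was 0.127.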

How the data were processed

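Full-length (Smart-seq2) libraries were made from 150 sorted tdTomato+ cells each, 3 per time point and population, 36 in all, and per the study's methods the 3 came from different mice. The values are raw read counts per gene, deposited by the authors as 1 table per population. Per the labels and methods, reads were trimmed with Trim Galore 0.5.0, aligned to mm10 with HISAT2 2.2.01 and counted by featureCounts 1.6.12 on GENCODE M20 (versions as given in the submitters' processing notes). Positions and GC content here came from GENCODE M21 and promoters from RefSeq (GRCm38.p6). The promoter elements searched were textbook consensus letters, entered by hand. All per-sample columns were used. Whether counting used strand is not given in the sources used here, and the protocol does not mark it, so reads of overlapping antisense genes cannot be told apart.

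The 32 members and the other gene lists were chosen with earlier results of these data known. Groups came from the labels. The labels number every library, but in 7 of the 12 groups the columns carry at least 1 number the labels lack, so for 21 libraries only the group is known, and these are named a, b and c. Counts were tested in R 4.3.3 with edgeR 4.0.16 (quasi-likelihood test, filterByExpr with a minimum count of 10, TMM), each population apart with its 18 libraries, and both together for differences between populations. P-values were adjusted by Benjamini-Hochberg over all genes tested, 14306 for Lrig1 GL cells and 18025 for Lgr5 GL cells. Comparisons with 0w also required a log2 fold change over 1 in size, and comparisons between wounds or populations the adjusted p alone. Fold changes used edgeR's default prior count. CPM are counts per TMM-scaled library total of a table, and TPM counts per exon length over their library total. Correlations used log2 CPM with a prior count of 2 and 100000 permutations, two-sided.

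Values in every library are given for the genes called in any comparison and for Hspa5, Hsp90b1, Calr, Pdia4, Sdf2l1, Xbp1, Atf4, Atf6, Ern1, Eif2ak3, Ddit3 and Herpud1. Other genes are given by examples, ranges and counts, and those examples were chosen after their values were seen. Same-numbered libraries did not deviate together (12 pairs, r from -0.07 to 0.12, 1 over 0.1), so replicate numbers were not used as pairs. No 2 libraries held identical values. Depth sets the precision, and a floor of 3 counts covers counting error only. Alternatives were DESeq2 1.42.0 and its size factors, edgeR's likelihood ratio test, limma-voom (limma 3.58.1), surrogate variables (sva 3.50.0), other filters and prior counts, removal of the GC trend or of Gm12415, a replicate block and leaving out each library. The test scripts were also run on simulated data in which 200 genes differed, and the rates of recovery are not given here. Figures were drawn with matplotlib 3.10.9 in Python 3.11.15.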

Additional observations from a re-analysis of the deposited data

Results flagged for a closer look

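The change of Pdia3 from 0w to 1w pw2 differed between the populations by the test of the difference itself. It was greater by 2.07 on the log2 scale in Lrig1 GL cells (SE 0.41, edgeR's quasi-likelihood test, adjusted p = 0.0252), with all 3 Lrig1 GL libraries above and all 3 Lgr5 GL libraries below their 0w libraries. Populations, mouse lines and tables cannot be told apart in this difference.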

How the results depend on the processing

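Counts of called genes depended on the test. The numbers below are genes of the 32. With edgeR's likelihood ratio test, Lrig1 GL cells had 1 call at 1w pw1, 5 at 8w pw1 and 6 at 1w pw2, and Lgr5 GL cells 2 at 1w pw1, 1 at 2w pw1 and 2 between the wounds. That test called 1, 1 and 3 differences between populations for the changes to 1w pw1, to 8w pw1 and to 1w pw2, and 1 at 0w. DESeq2 gave the same counts for these comparisons except 5 between the wounds in Lgr5 GL cells, and added 3 between the wounds in Lrig1 GL cells and 2 over the Lgr5 GL time course. With limma-voom 2 were called over the Lrig1 GL time course and 1 between the wounds in Lgr5 GL cells. With surrogate variables (5, 4 and 9 in the Lrig1, Lgr5 and joint fits) 0 were called in the 6 comparisons that had calls. The study's methods used sva in their own processing to account for noise, and the main test here did not. With the GC trend removed, Lrig1 GL cells had 0 at 8w pw1, 1 at 1w pw2 and 0 over the time course, Lgr5 GL cells 2 over the time course, and the populations differed in 1 gene at 1w pw1, 0 at 1w pw2 and 1 at 0w. Hsp90b1 at 1w pw2 in Lrig1 GL cells reversed from 0.79 to -0.088 under that setting, which by its construction takes out the part of a change that follows GC content. Without Gm12415 1 gene differed at 0w. Chosen after seeing the data, leaving out the 8w libraries gave 0 over the Lrig1 GL time course, and fitting only libraries with matching numbers gave 2 at 1w pw2. For the other settings the cause was not tested.

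With the replicate number as a block, which only the 15 libraries with matching column and label numbers allow, 0 were called at 1w pw2 in Lrig1 GL cells and the other 3 counts stayed at 0. The labels do not say that the numbers pair the libraries.

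Leaving out 1 library at a time gave, for Lrig1 GL cells, 0 to 5 calls over the time course, 0 to 4 at 1w pw2 and 0 to 3 at 8w pw1. For Lgr5 GL cells the range was 0 to 1 at 1w pw1, at 4w pw1 and over the time course alike. Differences between populations ranged from 0 to 1 at 0w and for the changes to 1w pw1, to 8w pw1 and to 1w pw2 each. The other counts stayed at 0. Over all settings together, fold changes of single genes and the summed levels of the module were also set against the main setting. Of these values 563 stayed the same, in direction and side of the threshold or, for a sum, within its SD. Another 57 lost a call and 28 gained one, 6 summed levels moved by more than their SD and 1 fold change turned its sign. The fold changes were the called ones and others picked by hand that were not called and could not lose a call. All 57 lost calls thus came from the called changes. Within a population, these calls were lost in 3 (Pdia3 or Syvn1 at 1w pw2) to 10 (Dnajb9 at 4w pw1) of 18 fits that left out 1 library. With 3 libraries a group and few reads of the sensors and stress genes, changes smaller than the spread were not detectable.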
